A study of Mus musculus with 12 samples.

Results

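The cytochrome P450 genes of families 1 to 3 encode the enzymes through which the liver oxidizes drugs, toxins, steroids, bile acids and unsaturated fatty acids, and they were followed here in total liver mRNA of WT and *Marchf6* LKO mice. Members were the protein-coding rows of the count table whose mouse symbol is Cyp1, Cyp2 or Cyp3 followed by a letter and digits. The table of 54232 genes held 60 such members in 16 subfamilies, and 45 of them passed a filter of over 2 reads in 6 or more of the 12 livers and were tested among 17509 genes. The symbols were taken from GENCODE M21, a neighbouring release of the Ensembl 93 symbols on the same GRCm38 build. A further 24 loci with P450 names were not members, and all but 1 of them are pseudogenes, the exception being *Cyp2ab1*.

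All mice were male C57Bl/6J littermates of 10 weeks on a chow diet, fasted for 4 h before sacrifice. The 6 WT mice were *Marchf6* fl/fl mice without Cre, and the 6 LKO mice were *Marchf6* fl/fl mice with Cre under the albumin promoter, so both groups carried the floxed alleles and only the LKO mice carried the recombinase. This promoter was used to remove *Marchf6* in hepatocytes, and the state of the gene in the other cells of the liver was not measured here. The removed exon is given as exon 2 in the design and in part of the methods. It is given as the third exon in another part of the methods and in the study's own results. Each liver gave 1 library.

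P450 enzymes of these families sit in the endoplasmic reticulum membrane, hold a haem group and take electrons from NADPH through P450 reductase (*Por*) and cytochrome b5. Much of their control is transcriptional. The receptor AHR drives Cyp1 genes, CAR and PXR drive Cyp2b, Cyp2c and Cyp3a genes, growth hormone sets a group of sex-biased members, and Wnt signalling sets the members that hepatocytes near the central vein express most. MARCHF6 is an E3 ubiquitin ligase of the same membrane, which marks proteins for degradation. mRNA levels carry no measure of enzyme protein or activity.

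Reads assigned to genes numbered 14860414 to 22111926 in a liver. The count of *Marchf6* covers the whole gene, and its normalized CPM (counts relative to the TMM-scaled size of the library) ran from 226 to 247 in WT and from 204 to 249 in LKO livers, so the genotypes were taken from the labels. Every WT library has a lower library number than every LKO library, so the order of the libraries and the genotype cannot be told apart. The 6 hepatocyte markers were abundant in every liver, and their summed level was 93043 to 112500 CPM in WT and 84192 to 94795 CPM in LKO livers. The 6 Kupffer cell markers were all higher in LKO livers, with sums of 81.7 to 109 CPM in WT against 105 to 178 CPM in LKO livers. An unadjusted p under 0.05 was reached by 5 of them, where 6.33% of all genes tested were higher by this rule. The adjusted threshold was passed by 0 of 6 in edgeR and 3 of 6 in DESeq2, which called 350 of 17509 genes. All 6 stellate cell markers also had higher LKO means (143.8 to 223 CPM summed in WT, 169 to 263 CPM in LKO), as did 5 of 6 endothelial markers (151.5 to 204 CPM in WT, 160.2 to 193 CPM in LKO). Cholangiocyte markers summed to 37.0 to 63.5 CPM in WT and 34.1 to 129 CPM in LKO livers, and B cell markers to 14.9 to 23.5 CPM and 5.89 to 7.86 CPM, of which *Ighm* was the main part. The part of these shifts in the P450 values was not tested, and in bulk tissue fewer cells of a type cannot be told apart from less RNA per cell.

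Many P450 genes arose by tandem duplication, and some copies share long identical stretches. The coding sequences of 3 neighbours on chromosome 19, *Cyp2c50*, *Cyp2c54* and *Cyp2c37*, show this. They are shown because it is not known how far reads of *Cyp2c50* were told from those of its copies. The haem-binding signature of P450 enzymes was found in 57 of the 60 members. In each of the 3 genes the 60 bases around it run from coding base 1267 to 1326, cross 1 intron in the genome, and lie at chr19:40111393-40113468 on the plus strand, chr19:40038384-40040216 on the minus strand and chr19:40009932-40011761 on the plus strand of GRCm38. Capitals mark the 4 positions at which the 3 sequences are not all alike.
*Cyp2c50*: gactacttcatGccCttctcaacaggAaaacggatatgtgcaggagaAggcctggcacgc
*Cyp2c54*: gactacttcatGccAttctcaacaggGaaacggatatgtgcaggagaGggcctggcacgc
*Cyp2c37*: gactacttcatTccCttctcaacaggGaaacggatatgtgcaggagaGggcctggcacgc
Over all 1473 coding bases *Cyp2c50* differs from *Cyp2c54* at 70 and from *Cyp2c37* at 57, and its longest identical run is 198 bases with the former and 154 bases with the latter. The encoded proteins are 92.4% and 94.5% identical to that of *Cyp2c50*. Closer still are *Cyp2a5* and *Cyp2a4*, which differ at 23 of 1485 coding bases, share a run of 216 bases and are alike at every base of the same window (coding bases 1279 to 1338), printed here for both without capitals, at chr7:26841845-26842912 and chr7:26313672-26314737, each on the plus strand and each across 1 intron.
*Cyp2a5* and *Cyp2a4*: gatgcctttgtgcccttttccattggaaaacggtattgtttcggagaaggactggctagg
How the counting treated reads that match several copies is not given in the sources used here, so each of these genes was read both alone and as a sum with its copies. A sum does not depend on how reads were split between copies, but reads dropped by the counting are missing from it too. At 95% identical residues or more, 4 groups of near-identical members were found, namely *Cyp2a4* with *Cyp2a5*, the 4 genes *Cyp2c40*, *Cyp2c67*, *Cyp2c68* and *Cyp2c69*, *Cyp3a25* with *Cyp3a59*, and *Cyp3a41a* with *Cyp3a41b*, which are identical at all 504 residues.

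The P450 mRNA pool of these livers was uneven. Members took 1.58% to 1.90% of normalized reads in WT and 1.32% to 1.75% in LKO livers. Per kilobase of the longest coding transcript, *Cyp2e1*, which oxidizes ethanol and paracetamol, held 39.4% of the summed level of all 45 members, with 3460 ± 403 CPM per kb in WT and 3517 ± 488 CPM per kb in LKO livers (SD, n = 6 each). Next on this scale came *Cyp2f2*, *Cyp2c29*, *Cyp2d9*, *Cyp2c70*, *Cyp2d26*, *Cyp1a2* and *Cyp3a11*, with WT levels from 675 CPM per kb for *Cyp2f2* down to 344 CPM per kb for *Cyp3a11*. Over the union of exons instead, *Cyp2e1* and *Cyp2f2* kept ranks 1 and 2, while *Cyp2c29* moved from rank 3 to rank 7 and *Cyp3a11* from rank 8 to rank 12. At the lower end stood *Cyp3a57*, *Cyp2j8*, *Cyp2t4* and *Cyp1b1*, all under 0.25 CPM per kb in both genotypes.

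Lower levels in LKO livers were the main pattern among the abundant members. Of 45 members, 28 were lower in LKO livers and 17 higher, with a median log2 fold change (LKO over WT) of −0.21 against 0.00016 over all genes tested. Without WT replicate 3 the median of the members was −0.11. At an unadjusted p under 0.05 there were 15 members lower and 2 higher, which is 33.3% and 4.44% of them, while 5.36% of all genes tested were lower and 6.33% higher by the same rule. With 1 liver left out, 13 to 17 members were lower and 1 to 5 higher by this rule, with 5 higher without WT replicate 3 and 1 without LKO replicate 5. The 2 higher members with all livers were *Cyp2j9* and *Cyp2a4*, and *Cyp2a4* passed the read filter through its LKO livers. After Benjamini-Hochberg adjustment over all 17509 genes in edgeR's quasi-likelihood test, 1 member passed an adjusted p of 0.05 (*Cyp2c50*, lower), against 0.428% of all genes, 0.154% lower and 0.274% higher. *Cyp2c50* was also the single member whose 6 LKO livers lay entirely apart from the 6 WT livers, where 1.3% of all genes tested lay apart, 0.554% lower and 0.748% higher.

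**Figure D1:**
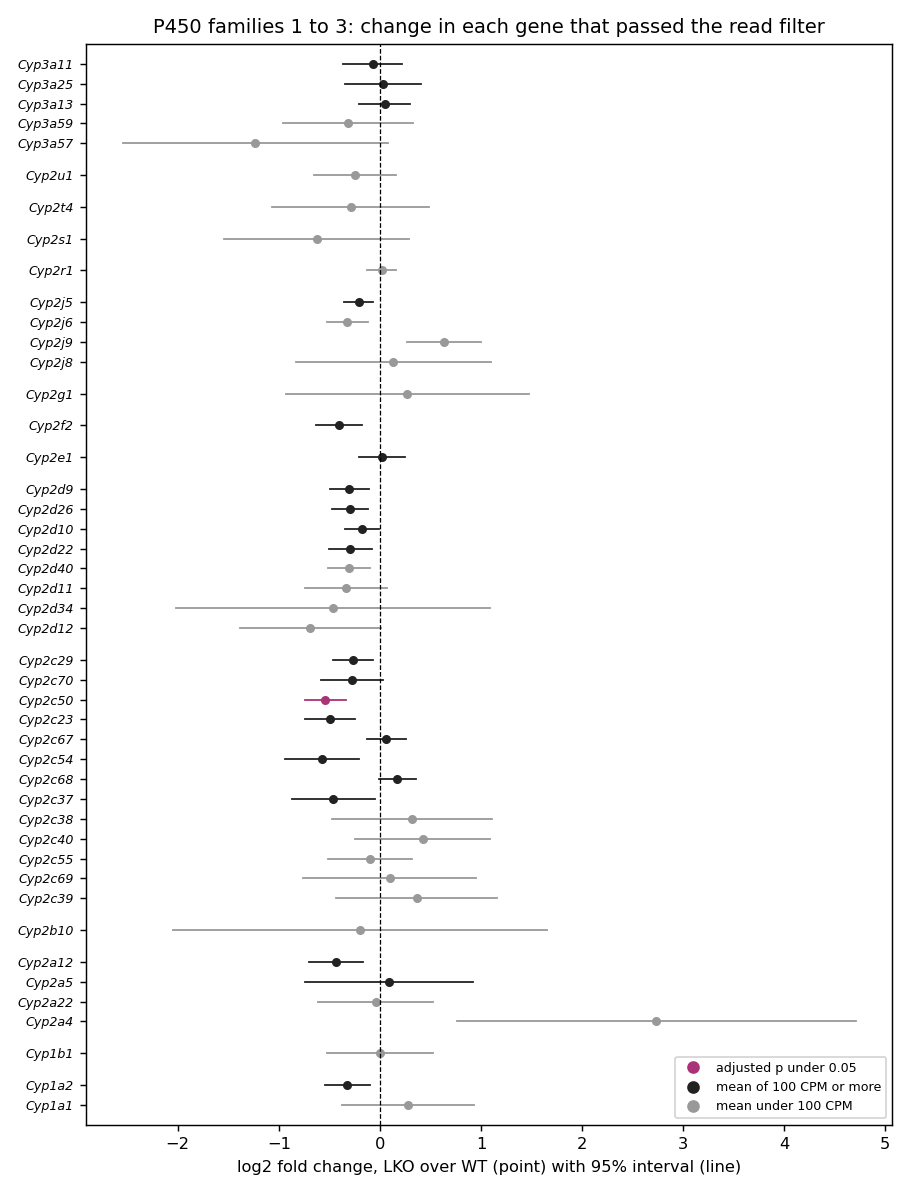
The log2 fold change of LKO over WT livers is plotted on the x axis for each of the 45 members that passed the read filter, grouped by subfamily on the y axis, with 95% intervals from edgeR (n = 6 livers a group). *Cyp2c50* is the 1 member with an adjusted p under 0.05, all 8 Cyp2d points lie left of 0, and the widest intervals belong to genes under 100 CPM such as *Cyp2a4* and *Cyp2b10*.

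The counts differed with abundance, whose part in the result was not tested. Of the 21 members with a mean of at least 100 CPM, 15 were lower and 13 were lower at an unadjusted p under 0.05 (61.9%), with a median of −0.28. Among the 1360 other genes at that level, 66.2% were lower and 14.6% were lower at an unadjusted p under 0.05, with a median of −0.058. The 24 members under 100 CPM had 13 lower and 11 higher means, and 2 in each direction had an unadjusted p under 0.05. In the plot of fold change against abundance, the members from 100 CPM upward form a band mostly below 0, with *Cyp2e1* alone at the right edge.

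**Figure D2:**
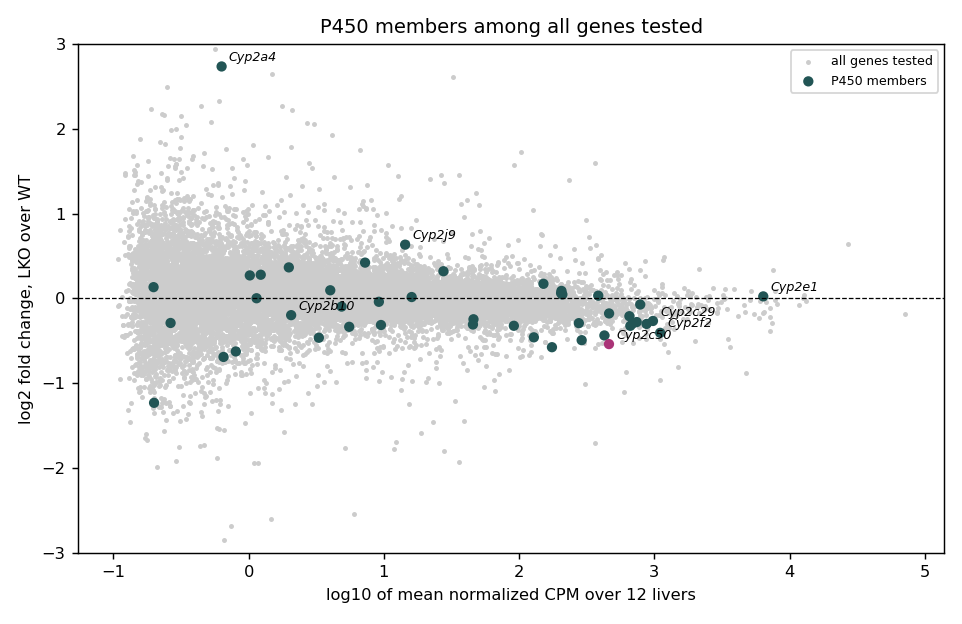
The log2 fold change of LKO over WT is plotted against the log10 of the mean normalized CPM over 12 livers for all 17509 genes tested (grey) and the 45 members (dark, with *Cyp2c50* in purple), with 6 grey genes outside the y axis. Of the 21 members at 100 CPM or more, 15 lie below 0.

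The Cyp2c subfamily, which includes epoxygenases of arachidonic acid and drug-oxidizing enzymes, had 13 of its 15 members above the filter. *Cyp2c50* (ENSMUSG00000054827, chr19:40089688-40113950) was at 501, 487, 600, 595, 625 and 477 CPM in WT replicates 1 to 6 and at 333, 337, 367, 450, 395 and 379 CPM in LKO replicates 1 to 6. Its lowest WT liver lay above its highest LKO liver. The means were 547.5 ± 66.1 and 377 ± 43.2 CPM (SD, n = 6 each), and the log2 fold change was −0.54 with a standard error of 0.09 and an adjusted p of 0.0168 in edgeR, which is 31.2% lower. Without WT replicate 5 it was −0.50 with an adjusted p of 0.0553 in edgeR, and without any other single liver the adjusted p stayed between 0.0132 and 0.0499.

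Its neighbours had lower LKO means too, without passing the adjusted threshold in the fit on genotype alone. *Cyp2c54* had a lowest, median and highest level of 159, 202 and 290 CPM in WT livers and of 106, 136 and 189 CPM in LKO livers, so the groups overlapped (log2 fold change −0.58, standard error 0.17, edgeR adjusted p = 0.185). *Cyp2c37*, an enzyme induced through CAR, had 108, 136 and 206 CPM in WT and 72.4, 105 and 149 CPM in LKO livers (−0.46, standard error 0.19, edgeR adjusted p = 0.362). In the sum of the 3 genes, which share at least 90% of residues, WT livers ran from 755 to 1096 CPM and LKO livers from 512 to 788 CPM. For that sum edgeR gave −0.53 with a standard error of 0.12 and an adjusted p of 0.0824, so the call on *Cyp2c50* was not kept when its reads were pooled with those of its copies.

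*Cyp2c23*, listed by RefSeq also as *Cyp2c44* and known as an arachidonic acid epoxygenase, lies farther along chromosome 19 (chr19:44005022-44029208) and has no near-identical copy here. Its WT livers ran from 301 to 429 CPM with a median of 316 CPM, and its LKO livers from 183 to 303 CPM with a median of 242 CPM. In 5 of the 6 LKO livers it was below every WT liver, and the log2 fold change was −0.49 (standard error 0.12, edgeR adjusted p = 0.0874). DESeq2 gave this gene an adjusted p of 0.00865. *Cyp2c29*, the Cyp2c gene with the highest CPM and inducible through CAR, was at 1067 ± 141 CPM in WT and 887 ± 92.5 CPM in LKO livers (SD, n = 6 each; log2 fold change −0.27, edgeR adjusted p = 0.269). *Cyp2c70*, which hydroxylates bile acids in mice, was at 813 ± 158 CPM in WT and 670 ± 112 CPM in LKO livers (−0.28, edgeR adjusted p = 0.477).

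The copies of the *Cyp2c40* group had LKO means at or above the WT means. *Cyp2c67* was at 200.2 ± 19.4 and 209 ± 27.1 CPM, and *Cyp2c68* at 142 ± 17.2 and 160.5 ± 16.0 CPM (WT and LKO, SD, n = 6 each), with log2 fold changes of 0.06 and 0.17. *Cyp2c40* and *Cyp2c69*, both female-predominant in adult mouse liver, stayed under 13 CPM in every liver, with log2 fold changes of 0.42 (edgeR adjusted p = 0.646) and 0.10. The sum of the 4 copies was 353 ± 27.3 CPM in WT and 382 ± 46.0 CPM in LKO livers, and its log2 fold change was 0.11 (95% interval −0.06 to 0.29, edgeR adjusted p = 0.633). *Cyp2c38* and *Cyp2c39* rested on 1 or a few livers and are given further on, and *Cyp2c55*, an intestinal and PXR-inducible member, was at 5.03 ± 1.29 CPM in WT and 4.70 ± 1.18 CPM in LKO livers (SD, n = 6 each).

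**Figure D3:**
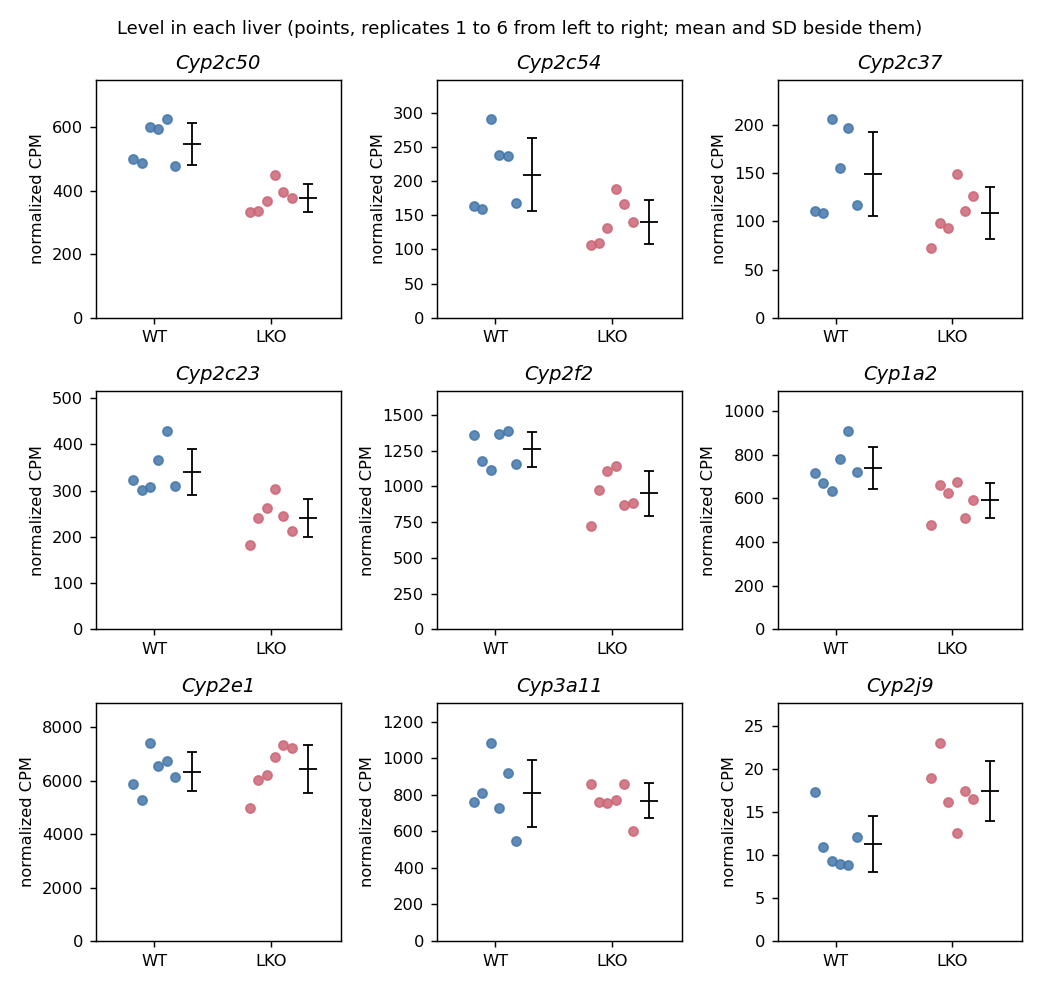
Normalized CPM (y axis) of 9 members is plotted for each of the 6 WT and 6 LKO livers, with the mean and SD beside the points. The groups separate for *Cyp2c50*, overlap at the edge for *Cyp2c23* and *Cyp2f2*, overlap widely for *Cyp2e1* and *Cyp3a11*, and run higher in LKO livers for *Cyp2j9*.

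The Cyp2d subfamily, whose human relative oxidizes many drugs, had negative log2 fold changes for all 8 of its members, from −0.69 to −0.18. Negative values were found for 49.96% of all genes tested and 66.2% of the other genes at 100 CPM or more. For *Cyp2d34* the log2 fold change was −0.46, and 0.10 without WT replicate 5. Its median was 1.19 CPM in WT and 1.37 CPM in LKO livers. An unadjusted p under 0.05 was reached by 5 of the 8 members (62.5%), where 5.36% of all genes tested were lower by this rule. An adjusted p of 0.05 was passed by 0 of 8 in edgeR. In DESeq2 1 of 8 passed it, *Cyp2d26*, as did 350 of all 17509 genes tested. *Cyp2d9*, a male-predominant testosterone hydroxylase, ran from 810 to 1084 CPM with a median of 988 CPM in WT livers and from 679 to 919 CPM with a median of 772 CPM in LKO livers (−0.30, standard error 0.09, edgeR adjusted p = 0.182). *Cyp2d26* ran from 633 to 842 CPM in WT and from 547 to 720 CPM in LKO livers (−0.29, standard error 0.08, edgeR adjusted p = 0.164). In both genes 4 of 6 LKO livers lay below every WT liver. Summed over the 8 members, the subfamily was at 2359 to 2808 CPM in WT and 1830 to 2312 CPM in LKO livers, 17.3% lower in the mean and without overlap between the groups.

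*Cyp2d10*, *Cyp2d22* and *Cyp2d40* were named after their values were seen. *Cyp2d10*, one of the least variable members among WT livers (coefficient of variation 3.79%), was at 492 ± 18.6 CPM in WT and 435 ± 50.6 CPM in LKO livers (SD, n = 6 each; −0.18). *Cyp2d22* and *Cyp2d40* had log2 fold changes of −0.29 and −0.31, both with all 6 LKO livers below the WT mean. The low *Cyp2d12* was at 0.80 ± 0.32 CPM in WT and 0.50 ± 0.22 CPM in LKO livers (−0.69, edgeR adjusted p = 0.431), and *Cyp2d11* at 6.16 ± 1.48 and 4.93 ± 1.33 CPM (SD, n = 6 each). Transcribed pseudogenes lie in the same cluster, and up to 3825 reads in a liver were counted on *Cyp2d37-ps*, so reads of the Cyp2d genes may have been shared with loci that are no members.

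Among the Cyp1 genes, which AHR drives, *Cyp1a2* is the liver enzyme that oxidizes caffeine and aromatic amines. It ran from 635 to 909 CPM with a median of 719.6 CPM in WT livers and from 477 to 674 CPM with a median of 610.3 CPM in LKO livers, with 4 LKO livers below every WT liver (−0.32, standard error 0.10, edgeR adjusted p = 0.223). *Cyp1a1* and *Cyp1b1*, which are inducible and mostly expressed outside the unstimulated liver, were at 1.10 ± 0.40 and 1.15 ± 0.36 CPM in WT livers and 1.35 ± 0.56 and 1.14 ± 0.34 CPM in LKO livers (SD, n = 6 each). So 1 of the 3 AHR-driven members was lower at an unadjusted p under 0.05, against 5.36% of all genes tested. The adjusted threshold was passed by 0 of 3 in edgeR and in DESeq2. *Ahr* itself was at 62.7 ± 17.9 CPM in WT and 48.5 ± 15.5 CPM in LKO livers (−0.37, edgeR adjusted p = 0.525).

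*Cyp2f2*, a periportal enzyme known for the bioactivation of naphthalene, ran from 1113 to 1388 CPM with a median of 1268 CPM in WT livers and from 726 to 1144 CPM with a median of 929 CPM in LKO livers. Of the 6 LKO livers 5 lay below every WT liver, and the log2 fold change was −0.41 (standard error 0.11, edgeR adjusted p = 0.124). *Cyp2a12*, a bile acid and steroid hydroxylase, was at 492 ± 75.5 CPM in WT and 363 ± 67.9 CPM in LKO livers (SD, n = 6 each; −0.44, standard error 0.13, edgeR adjusted p = 0.164), with 4 LKO livers below every WT liver. DESeq2 called both genes, with adjusted p of 0.0201 for *Cyp2f2* and 0.0450 for *Cyp2a12*. *Cyp2a5*, the coumarin hydroxylase, varied widely within each genotype, from 67.97 to 352 CPM in WT and from 99.2 to 354 CPM in LKO livers (0.09, edgeR adjusted p = 0.961).

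The Cyp2j genes, which encode epoxygenases, had log2 fold changes of both signs. *Cyp2j5* ran from 626 to 749 CPM in WT and from 538 to 664 CPM in LKO livers (−0.21, standard error 0.07, edgeR adjusted p = 0.222), and *Cyp2j6* from 84.4 to 118 CPM and from 66.4 to 89.98 CPM (−0.32, standard error 0.09, edgeR adjusted p = 0.172). *Cyp2j9* had the opposite sign. It was at 17.3, 11.0, 9.27, 9.02, 8.85 and 12.2 CPM in WT replicates 1 to 6 and at 19.02, 23.1, 16.2, 12.5, 17.4 and 16.5 CPM in LKO replicates 1 to 6, so WT replicate 1 lay among the LKO livers. The log2 fold change was 0.63 (standard error 0.17, edgeR adjusted p = 0.132), 0.80 without WT replicate 1 with an adjusted p of 0.0307 in edgeR, and DESeq2 gave an adjusted p of 0.0274. The list of arachidonic acid epoxygenases and hydroxylases held 7 members (*Cyp2j5*, *Cyp2j6*, *Cyp2j9*, *Cyp2c29*, *Cyp2c38*, *Cyp2c39* and *Cyp2c23*). At an unadjusted p under 0.05, 4 of them were lower and 1 higher, against 5.36% and 6.33% of all genes tested. The adjusted threshold was passed by 0 of 7 in edgeR and 2, *Cyp2c23* and *Cyp2j9*, in DESeq2, which called 350 of 17509 genes.

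*Cyp2e1* and *Cyp3a11*, which oxidize many drugs, had log2 fold changes near 0. *Cyp2e1* ran from 5288 to 7433 CPM with a median of 6351 CPM in WT livers and from 4983 to 7356 CPM with a median of 6538 CPM in LKO livers (log2 fold change 0.02, 95% interval −0.20 to 0.25, edgeR adjusted p = 0.962). *Cyp3a11*, the main PXR-inducible enzyme, ran from 544 to 1085 CPM and from 600.5 to 860 CPM (−0.07, 95% interval −0.36 to 0.22, edgeR adjusted p = 0.890). The interval of *Cyp3a11* includes the values of *Cyp2c29* and *Cyp1a2*, so a difference of that size cannot be told from none for it. *Cyp3a13* and *Cyp3a25* had log2 fold changes of 0.05 and 0.03, and the sum of *Cyp3a25* with its copy *Cyp3a59* of 0.02 (95% interval −0.36 to 0.41). *Cyp3a57* had the most negative value of the 45 tested members, −1.23, at 0.28 ± 0.18 CPM in WT and 0.12 ± 0.09 CPM in LKO livers (SD, n = 6 each; edgeR adjusted p = 0.459). As a share of the summed P450 CPM, *Cyp2e1* made up 33.6% to 39.7% in WT and 37.8% to 45.1% in LKO livers.

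Subfamily sums over all members, including those under the filter, are given as a description without a test. The Cyp2c sum was 3509 ± 219 CPM in WT and 2844 ± 253 CPM in LKO livers, with 5 of 6 LKO livers below every WT liver. The Cyp2f sum had the same count, while the Cyp1a and Cyp2j sums had 4 LKO livers below every WT liver. Relative to the WT mean the LKO mean stood at −24.5% for Cyp2f, −20.01% for Cyp1a, −18.97% for Cyp2c, −16.5% for Cyp2a and −13.4% for Cyp2j. The Cyp3a sum, at 1404 ± 206 and 1378 ± 88.1 CPM, and the Cyp2e sum overlapped almost fully. All members together were at 17433 ± 1446 CPM in WT and 15707 ± 1433 CPM in LKO livers, and without *Cyp2e1* at 11092 ± 900 and 9261 ± 829 CPM (SD, n = 6 each).

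**Figure D4:**
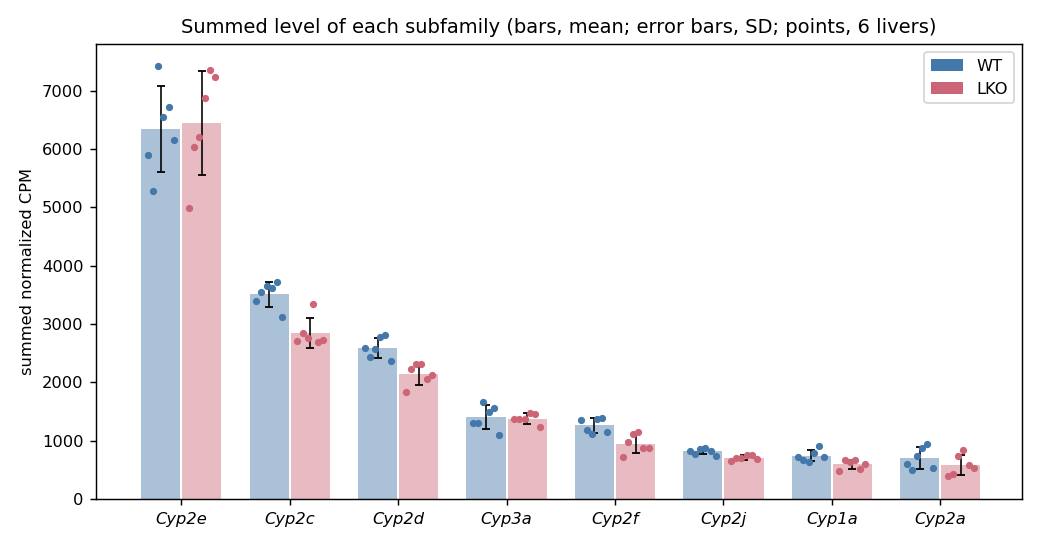
Summed normalized CPM (y axis) of the 8 most abundant subfamilies (x axis) is plotted as the mean (bar), SD (error bar) and single livers (points) of 6 WT and 6 LKO livers. The Cyp2d points of the genotypes do not overlap (2359 CPM is the lowest WT liver and 2312 CPM the highest LKO liver), while Cyp2e and Cyp3a overlap.

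By position along the lobule, 5 of the 7 listed pericentral members were lower (*Cyp1a2*, *Cyp2c29*, *Cyp2c37*, *Cyp2c50* and *Cyp3a11*), and *Cyp2e1* and *Cyp2a5* were not. Of the 7, 4 were lower at an unadjusted p under 0.05 (57.1%), where 5.36% of all genes tested were lower by this rule. The periportal *Cyp2f2* was lower as well. Of 6 pericentral genes outside the P450s, 4 were lower and 2 higher in LKO livers, 2 of the lower ones at an unadjusted p under 0.05 and 0 of 6 past the adjusted threshold in edgeR and in DESeq2. Those 2 were *Axin2* (12.9 ± 3.65 CPM in WT and 9.90 ± 1.66 CPM in LKO livers, log2 fold change −0.38) and *Tbx3* (71.6 ± 14.4 and 58.2 ± 7.73 CPM, −0.30), and *Lgr5* was at 7.99 ± 1.92 and 6.55 ± 1.68 CPM (−0.29; SD, n = 6 each). *Glul*, the defining gene of the innermost pericentral cells, was at 1041 ± 87.7 CPM in WT and 1036 ± 64.4 CPM in LKO livers, and *Oat* at 878 ± 182 and 887 ± 153 CPM. These last 2 made up most of the summed level, which was 1918 to 2692 CPM in WT and 2019 to 2497 CPM in LKO livers. Of 5 periportal genes 4 were lower, 0 of them at an unadjusted p under 0.05, with sums of 6685 to 9431 and 6632 to 8933 CPM.

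Some low members differed more between single livers than between genotypes. *Cyp2b10*, the classic CAR target, was at 9.59 CPM (151 reads) in WT replicate 3 and at 7.05 CPM (164 reads) in LKO replicate 5, and at 0.14 to 1.95 CPM in the other 10 livers. Its relative *Cyp2b9* did not pass the filter and had 44 reads in WT replicate 3, 16 in LKO replicate 5 and at most 2 in any other liver. The same WT liver had the highest *Cyp2c38* (63.8 CPM against 13.3 to 19.7 CPM in other WT livers) and *Cyp2c39* (4.00 CPM against 0.83 to 1.65 CPM), and LKO replicate 5 was the highest LKO liver for both. LKO replicate 5 also had 108 of the 158 reads of *Cyp2a4*, a female-predominant testosterone hydroxylase, at 4.65 CPM against 0.19 to 0.74 CPM in other LKO livers and 0 to 0.47 CPM in WT livers. *Cyp2c70* was lowest in these livers, at 527 CPM in WT replicate 3 and 457 CPM in LKO replicate 5.

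**Figure D5:**
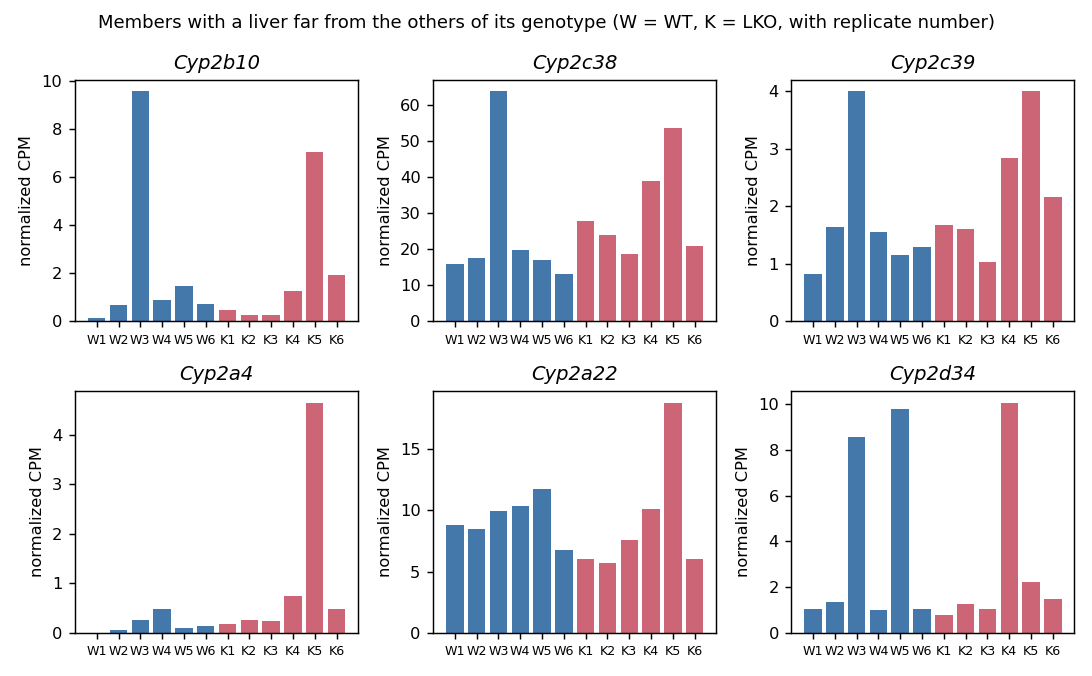
Normalized CPM (y axis, bars from 0) of 6 low members is plotted for WT replicates 1 to 6 (W1 to W6) and LKO replicates 1 to 6 (K1 to K6). W3 and K5 stand out for *Cyp2b10* and have the highest *Cyp2c38* and *Cyp2c39* of their genotype, K5 alone stands out for *Cyp2a4* and *Cyp2a22*, and W3, W5 and K4 for *Cyp2d34*.

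Over the 5 members listed as induced through CAR or PXR (*Cyp2b10*, *Cyp2c29*, *Cyp2c37*, *Cyp2c55* and *Cyp3a11*), all 5 had lower LKO means, as did 49.96% of all genes tested, and 2 were lower at an unadjusted p under 0.05, against 5.36% of all genes, with 0 of 5 past the adjusted threshold in edgeR and in DESeq2. The members with a liver far from the rest also had wide intervals. *Cyp2a4* had the most positive value of the 45 tested members, at 2.73 (standard error 0.92, edgeR adjusted p = 0.243), and without LKO replicate 5 it was 1.16. This gene had 0 to 7 reads in WT livers and 4 to 108 reads in LKO livers. It passed the read filter through the LKO livers, so its higher value is not independent of that filter. As a sum with *Cyp2a5*, to which most reads of the pair belong, the log2 fold change was 0.09 (95% interval −0.74 to 0.92). *Cyp2c38* and *Cyp2c39* had log2 fold changes of 0.32 and 0.37 (edgeR adjusted p = 0.793 and 0.755), which were 0.87 and 0.79 without WT replicate 3 and 0.083 and 0.10 without LKO replicate 5. For *Cyp2b10* the log2 fold change was −0.20, which was 1.28 without WT replicate 3 and −1.39 without LKO replicate 5. With both livers left out, chosen for their *Cyp2b10* after the data were seen, 1 member still passed, *Cyp2c50* at −0.52 with an adjusted p of 0.0479 in edgeR, and 95 genes passed in all. *Cyp2a22* and *Cyp2d34*, named after their values were seen, each had at least 1 liver far above the rest, with 18.8 CPM of *Cyp2a22* in LKO replicate 5 and 8.57 to 10.1 CPM of *Cyp2d34* in WT replicates 3 and 5 and LKO replicate 4.

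Of 9 members listed as female-predominant, 6 did not pass the filter, and the 3 that did were *Cyp2a4*, *Cyp2c40* (42 to 238 reads a liver) and *Cyp2c69* (20 to 149 reads a liver). Of the others, *Cyp2b13* and *Cyp3a41b* had no read in any liver, which does not show that they are silent. Reads that fit both *Cyp3a41b* and its copy *Cyp3a41a* may have been counted for neither. *Cyp3a16* had more than 2 reads in 5 livers and *Cyp3a44* in 3, the nearest misses of the filter, while *Cyp2a4* and *Cyp3a57* passed it in 8 livers and *Cyp2j8* in 9. The 15 members under the filter were *Cyp2b9*, *Cyp2b13*, *Cyp2b19*, *Cyp2b23*, *Cyp2c65*, *Cyp2c66*, *Cyp2j7*, *Cyp2j11*, *Cyp2j12*, *Cyp2j13*, *Cyp2w1*, *Cyp3a16*, *Cyp3a41a*, *Cyp3a41b* and *Cyp3a44*. Members mostly known from other tissues passed at low levels, with *Cyp2g1* at 0.92 ± 0.50 and 1.12 ± 0.99 CPM and *Cyp2s1* at 0.98 ± 0.65 and 0.63 ± 0.30 CPM. *Cyp2u1*, a fatty acid hydroxylase, was at 49.9 ± 14.5 CPM in WT and 42.1 ± 9.82 CPM in LKO livers (−0.25). *Cyp2t4* overlaps *Egln2* on the opposite strand (55 reads against 11397 over all livers), and the strand setting of the counting is not given in the sources used here. *Cyp2r1*, which starts the activation of vitamin D, was at 16.0 ± 1.09 and 16.2 ± 0.95 CPM (0.02, 95% interval −0.13 to 0.16).

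Genes that serve the P450s were examined from a list of 35 (electron donors, haem synthesis and breakdown, receptors and their partners, AHR targets), of which 33 were tested. Of these 17 were higher and 16 lower, 3 and 2 of them at an unadjusted p under 0.05 (9.09% and 6.06%, against 6.33% and 5.36% of all genes tested). An adjusted p of 0.05 was passed by 1 in edgeR and 2 in DESeq2, which called 75 and 350 of all 17509 genes tested. The gene past the edgeR threshold was *Pgrmc2*, a haem-binding membrane protein related to the P450 partner *Pgrmc1*, at 64.4 to 86.2 CPM in WT and 86.0 to 123 CPM in LKO livers (log2 fold change 0.50, standard error 0.09, edgeR adjusted p = 0.0174), where the lowest LKO liver lay just under the highest WT liver. Without WT replicate 5 its adjusted p was 0.0584 in edgeR. *Por*, the electron donor of every member, was at 377 ± 150 CPM in WT and 459 ± 135 CPM in LKO livers (0.29, edgeR adjusted p = 0.681), and it was highest among WT livers in replicate 3 (651 CPM), the liver with the highest *Cyp2b10*. The PXR gene *Nr1i2* had a log2 fold change of 0.00 and the CAR gene *Nr1i3* of −0.31 (edgeR adjusted p = 0.637), with 83.6 CPM of *Nr1i3* in WT replicate 3 against 24.4 to 58.0 CPM in the other WT livers. *Alas1*, which controls haem synthesis, was at 333 ± 142 and 475 ± 276 CPM (0.52, edgeR adjusted p = 0.632).

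Promoters were read for the 38 of 45 tested members with a RefSeq entry (GRCm38.p6; not *Cyp2c23*, *Cyp2c54*, *Cyp2d12*, *Cyp2d22*, *Cyp2d34*, *Cyp2g1* or *Cyp2u1*), over 250 bases before to 50 bases after the start of the gene. The letters CAAAGT, part of the sites that HNF4A, a hepatocyte transcription factor, can bind, occurred on either strand in 20 of 38 (52.6%), against 3852 of 27025 promoters of all genes (14.3%). Copies with similar promoters, such as *Cyp2c37* and *Cyp2c50*, are counted singly among the 20, so the members are not independent and the share was not tested. GCGTG, the core of AHR sites, occurred in 6 of 38 (15.8%), against 32.5% of all promoters, and *Cyp1a1*, *Cyp1b1* and *Cyp2b10* were among the 6. The 250 bases before the start are shown for *Cyp2c50* (chr19:40089429-40089678) and *Cyp2c37* (chr19:39992174-39992423), both on the plus strand, because both genes had lower LKO means. Capitals mark CAAAGT.
*Cyp2c50*: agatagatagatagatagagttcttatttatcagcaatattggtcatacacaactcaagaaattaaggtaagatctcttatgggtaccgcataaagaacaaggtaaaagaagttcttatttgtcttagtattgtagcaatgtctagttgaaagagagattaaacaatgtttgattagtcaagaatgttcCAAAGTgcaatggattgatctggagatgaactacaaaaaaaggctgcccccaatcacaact
*Cyp2c37*: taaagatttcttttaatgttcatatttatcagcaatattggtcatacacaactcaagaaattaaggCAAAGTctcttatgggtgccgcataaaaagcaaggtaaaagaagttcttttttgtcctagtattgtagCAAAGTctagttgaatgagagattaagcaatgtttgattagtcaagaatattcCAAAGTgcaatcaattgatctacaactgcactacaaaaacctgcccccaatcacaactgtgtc
Aligned, 215 of 245 bases were identical (87.8%), with 1 match to CAAAGT in *Cyp2c50* and 3 in *Cyp2c37*. Such a match is a run of letters, and binding was not measured. *Cyp2a5*, *Cyp3a11* and *Cyp3a25* also hold the letters and had log2 fold changes of 0.09, −0.07 and 0.03.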

How the data were processed

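Total RNA of 12 mouse livers was prepared with a KAPA mRNA HyperPrep kit and sequenced on a HiSeq4000. Per the labels and methods, the authors used FastQC 0.11.15, Trimmomatic 0.36, HISAT2 2.1.0 and HTSeq 0.6.1 with GRCm38, and deposited raw read counts per Ensembl gene without normalization or a filter. The strand setting and the handling of reads with several matches are not given in the sources used here. Of 54232 gene identifiers, 54165 were named from GENCODE M21. Counts cover 14860414 to 22111926 reads a liver, and intervals cover the spread between livers.

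A gene was kept where 6 or more livers had over 2 reads of it. Counts were scaled by TMM and tested, two-sided, in edgeR 4.0.16 (R 4.3.3) by quasi-likelihood on genotype alone, with Benjamini-Hochberg adjustment over all genes. Standard errors are the size of the log2 fold change over the square root of F. Levels are normalized CPM, and log2 CPM used a prior count of 0.5. Near-identical copies share at least 95% of residues translated from GENCODE coding sequences. Named were members past the threshold or without overlap, the 3 largest values in each direction at 1 CPM or more, the 2 most abundant of each subfamily, listed members that passed the filter, near-identical copies, members at the edge of the filter, and *Por*, *Nr1i2*, *Nr1i3*, *Ahr* and listed partners past the threshold. *Cyp2c44* of the epoxygenase list was read as *Cyp2c23* by RefSeq. The members, lists and tests were chosen with earlier results of these data known. Alternatives were limma 3.58.1 voom (the test of the methods), DESeq2 1.42.0, RLE and upper-quartile scaling, scaling without the 20 most abundant genes, no filter, at least 10 reads in every liver, filterByExpr, a replicate block, each liver left out and copies summed. On simulated counts of this comparison (17165 genes), edgeR recovered 87.0% of changes of 1 on the log2 scale with 3.63% false calls, limma voom 87.0% with 3.13%, and DESeq2 90.0% with 8.70%. Changes under 1 were not simulated, so the recovered shares do not hold for the smaller changes of most members.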

Additional observations from a re-analysis of the deposited data

Results flagged for a closer look

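Each gene named here had 1 liver far from the other 5 of its genotype, where the gap to the nearest liver, divided by the range of the 6, was above Dixon's 95% critical value for 6 samples. Of 156 groups searched, 15 passed. A rate of 1 in 20 would give 7.8, but that rate holds for independent groups of normal values. Some of these groups rest on few reads or on related genes, so 7.8 is a rough guide only. WT replicate 3 was the highest WT liver for *Cyp2b10* (ratio 0.860), *Cyp2c38* (0.872) and *Cyp2c39* (0.742), and for *Cyb5r3* (0.641), which reduces cytochrome b5, at 870 CPM against 569 to 677 CPM. LKO replicate 5 was the highest LKO liver for *Cyp2b10* (0.753), *Cyp2a4* (0.876) and *Cyp2a22* (0.665) and the lowest for *Cyp2c70* (0.685), at 457 CPM against 670 to 768 CPM. So 8 of the 15 ratios lie in these 2 livers, and the part of any single cause in them was not tested.

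LKO replicate 4 was highest for *Cyp2c68* (0.746), at 192 CPM against 149.7 to 160.5 CPM, and for *Cyp2d34* (0.844), at 10.1 CPM against 0.79 to 2.24 CPM. LKO replicate 3 was highest for *Cyp2d12* (0.651), which rests on 16 reads. LKO replicate 1 was lowest for *Hmox2* (0.698), a haem oxygenase, and highest for *Keap1* (0.650), which restrains the oxidative stress factor NRF2. LKO replicate 6 was lowest for *Nr1i2* (0.658), at 73.0 CPM against 89.6 to 98.1 CPM, and WT replicate 2 was lowest for *Tiparp* (0.671), an AHR target, at 5.83 CPM against 9.01 to 10.6 CPM.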

How the results depend on the processing

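In the 20 to 23 alternatives in which each was tested, all 17 members with an unadjusted p under 0.05 kept their direction, as did 31 of the 45 members in all, and scaling moved the median of all genes by at most 0.02. The number of genes past the threshold was 75, and 38 to 132 with 1 liver left out (lowest without WT replicate 5, highest without WT replicate 3), 114 without a filter and 350 with DESeq2, 179 of them higher. The number of members was 1, and 0 to 2 with 1 liver left out (0 without WT replicate 5), and 6 with DESeq2 (*Cyp2a12*, *Cyp2c23*, *Cyp2c50*, *Cyp2d26*, *Cyp2f2* and *Cyp2j9*). Members without overlap numbered 1 to 3 with 1 liver left out and 3 without both livers highest in *Cyp2b10*, where fewer livers can overlap. The median of the members was −0.21, and −0.11 without WT replicate 3. Members higher at an unadjusted p under 0.05 numbered 2, and 1 to 5 with 1 liver left out, 1 with at least 10 reads in every liver, 1 with filterByExpr and 1 with copies summed, counts added after the values were seen. Partner genes past the threshold numbered 0 to 1 with 1 liver left out and 2 with DESeq2. The replicate block gave 97 genes and 2 members, with *Cyp2c54* at −0.57 and an adjusted p of 0.0478 in edgeR. Same-numbered livers did not deviate together in every pair (correlations −0.065 to 0.14), and 2 of 6 WT livers correlated best with their own number, so the numbers were not taken as pairs.

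*Cyp1b1* was −0.0018 with RLE, −0.0013 with DESeq2, −0.0056 with the block and −0.0063 without both livers. *Cyp2b10* was 0.079 with the block and 0.10 without both livers, *Cyp2c69* −0.080 without both livers, *Cyp2g1* −0.049 with limma voom, and *Nr1i2* −0.0031 with RLE and −0.0031 with DESeq2. With 1 liver left out the ranges were −0.13 to 0.15 for *Cyp1b1*, −0.40 to 0.061 for *Cyp2a22*, −0.12 to 0.33 for *Cyp2a5*, −1.39 to 1.28 for *Cyp2b10*, −0.0015 to 0.10 for *Cyp2c67*, −0.24 to 0.36 for *Cyp2c69*, −1.48 to 0.10 for *Cyp2d34*, −0.024 to 0.088 for *Cyp2e1*, −0.20 to 0.50 for *Cyp2g1*, −0.10 to 0.45 for *Cyp2j8*, −0.015 to 0.045 for *Cyp2r1*, −0.16 to 0.030 for *Cyp3a11*, −0.014 to 0.12 for *Cyp3a13*, −0.076 to 0.17 for *Cyp3a25* and −0.075 to 0.12 for *Nr1i2*. The sums ran from −0.11 to 0.33 for *Cyp2a4* with *Cyp2a5* and from −0.085 to 0.17 for *Cyp3a25* with *Cyp3a59*. The cause of these changes was not tested. Depth limits *Cyp2a4*, *Cyp2b10*, *Cyp2j8*, *Cyp2t4* and *Cyp3a57*, which had 3 reads or fewer in at least 1 liver.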

Other observations

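Single livers carried much of the spread among members. LKO replicate 4 was the highest of the 6 LKO livers for 24 of the 45 members and LKO replicate 1 the lowest for 25. Among WT livers, replicate 5 was highest for 15 members and replicate 6 lowest for 16. *Cyp2c54* and *Cyp2c37* followed this order, with 189 and 149 CPM in LKO replicate 4 and 106 and 72.4 CPM in LKO replicate 1.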
